A study of Mus musculus with 24 samples.

Results

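The cerebrum at postnatal day 42 (P42) was compared between mice with an induced mutation of Polr3a and wild type mice, 14 days after both had been given tamoxifen at P28. The comparison takes the 4 mutant and 4 wild type cerebrum libraries of that age, 8 of the 24 samples of the series, and all genes in their count table. All mice were C57BL/6J and fed ad libitum. Each genotype held 2 males (replicates 1 and 3) and 2 females (replicates 2 and 4). Other samples of the series are cerebellum at P42 and cerebrum at P75, which served only to ask whether a difference seen at P42 in cerebrum was present there too. The labels do not give the Cre line that tamoxifen activated, whether wild types carried it, how the cerebrum was dissected, or whether each library came from a separate animal, so p-values measure the spread between libraries. Total RNA was extracted with Trizol and libraries were made by polyA selection.

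RNA polymerase III, whose largest subunit is the product of Polr3a, transcribes tRNA genes, the 5S rRNA genes and a few other short noncoding genes. These products mostly lack a polyA tail, so the libraries show how messenger RNAs differed and not the polymerase's own output. One well-known response to trouble in translation is the integrated stress response, in which kinases phosphorylate eIF2, general initiation slows, and the transcription factor ATF4 is translated and switches on genes for amino acid synthesis, amino acid uptake, tRNA charging and stress signalling. The cerebrum is mostly cortex, hippocampus and striatum, while thalamus, hypothalamus, habenula and midbrain lie deep to them and carry their own sets of marker genes. In bulk RNA, fewer cells of a type and less RNA per cell cannot be told apart.

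The libraries held 15500359 to 23175864 counts each, and the Y-linked and Xist counts fitted the sex on the label for 8 of 8. Mutants 3 and 4 stood apart from the other libraries in brain region content. Slc17a7, the vesicular glutamate transporter of cortical excitatory neurons, had 1248, 908, 997 and 688 CPM (read counts scaled to library size) in wild types 1 to 4 and 925, 806, 109 and 174 CPM in mutants 1 to 4. The joint level of deep region marker genes was highest in the same 2 libraries, although the thalamus markers Prkcd and Plekhg1 were highest in mutant 1. Slc17a7 was picked as a defining cortical marker after its values were seen. Cortical markers, which fit the labelled tissue, were detected in every library. Cerebellar and pituitary tissue was scarce: Gabra6, a marker of cerebellar granule cells, had 211 counts in wild type 1, 109 in mutant 4 and at most 8 in the others, and the pituitary hormone gene Gh at most 2. Values without mutants 3 and 4 are therefore given beside several of the lists and genes below. The 2 were also the most alike pair of replicates, with a chi-square per degree of freedom of 7.16 over genes against 24.1 to 84.5 for the other 11 pairs within a genotype, and still differed by more than counting noise.

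The mutated gene itself was checked first. Polr3a (ENSMUSG00000025280, chromosome 14, 24448696 to 24487058 in build mm10) had 35.6, 39.7, 42.7 and 44.3 CPM in the wild types and 33.0, 38.7, 36.8 and 38.3 CPM in the mutants. The groups overlapped, and the log2 fold change of -0.14 ± 0.11 (standard error, SE) did not pass the test (adjusted p = 0.562, edgeR quasi-likelihood test with Benjamini-Hochberg adjustment), so the level of this transcript does not check the genotype labels. Esr1, which encodes estrogen receptor alpha (ENSMUSG00000019768, chromosome 10, 4611593 to 5005614) and was named because earlier results of these data had shown it, had 1.53, 3.46, 3.86 and 9.68 CPM in wild types and 62.5, 61.0, 38.6 and 41.4 CPM in mutants. Every mutant lay far above every wild type, at a log2 fold change of 3.56 ± 0.44 that missed the threshold in edgeR (adjusted p = 0.0716) and passed it in DESeq2 (adjusted p = 4.67e-15). The counts carry no information on whether these reads came from the Esr1 locus or from a transgene with estrogen receptor sequence.

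Across the genome the difference between the genotypes was small relative to the spread between libraries. Of 18205 genes kept, 3 passed an adjusted p under 0.05 in edgeR (0.0165%), all higher in mutants. DESeq2 called 164 higher (0.901%) and 69 lower (0.379%). At an unadjusted p under 0.05 there were 1264 higher genes (6.94%) and 1035 lower genes (5.69%). All 4 mutants lay above all 4 wild types for 643 genes (3.53%) and below them for 524 (2.88%). The median log2 fold change over all genes was 0.01, with 51.4% above 0. These shares are the background for every list that follows, where no member passed the edgeR test unless a sentence says so.

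The 3 genes that rose were Slitrk6, Synpo2 and Wnt3. Slitrk6, a synaptic membrane protein of the Slit and Trk-like family (ENSMUSG00000045871, chromosome 14, 110748580 to 110755149), had 4.19, 2.17, 2.81 and 2.45 CPM in wild types and 12.3, 10.9, 17.7 and 16 CPM in mutants, at 2.32 ± 0.24 on the log2 scale. Synpo2, which binds actin (ENSMUSG00000050315, chromosome 3, 123076519 to 123236149), had 21.8, 12.5, 9.69 and 12.4 CPM in wild types and 72.1, 41.0, 79.9 and 55.7 CPM in mutants, a log2 fold change of 2.12 ± 0.24. Wnt3, a secreted Wnt ligand (ENSMUSG00000000125, chromosome 11, 103774150 to 103817957), had 6.17, 3.55, 3.65 and 2.86 CPM in wild types and 14.8, 13, 17.0 and 15.6 CPM in mutants, a log2 fold change of 1.92 ± 0.22. In each of the 3 genes every mutant was above every wild type, mutant 3 was the highest library and mutant 1 was above mutant 2. All 3 had the same adjusted p of 0.0476 in edgeR. Without mutants 3 and 4 their log2 fold changes were 2.02, 1.96 and 1.80, and none passed (adjusted p = 0.244, 0.332 and 0.445). All 3 calls ended when wild type 2 or 4, or mutant 2, 3 or 4, was left out (adjusted p of 0.416, 0.19, 0.116, 0.115 and 0.169 for Slitrk6). Without wild type 3 Synpo2 passed (0.0219) and the other two did not (0.191 for Slitrk6 and 0.191 for Wnt3).

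The higher genes next in order of p, again without overlap of the groups, missed the threshold in edgeR and passed it in DESeq2. Prkcd, the protein kinase C delta gene that marks thalamic relay neurons, had 87.1, 22.2, 19.6 and 18.3 CPM in wild types and 273, 144, 245 and 205 CPM in mutants, a log2 fold change of 2.69 ± 0.41 (edgeR adjusted p = 0.133, DESeq2 1.65e-09). Wild type 1 was far above the other wild types and still below every mutant. Abhd12b, which encodes a hydrolase domain protein, had 0.370 to 2.32 CPM in wild types and 7.18 to 12.8 CPM in mutants (3.55 ± 0.52). Plekhg1, a gene on the thalamus marker list, had 21.4 to 40.5 against 58.9 to 113 CPM (1.54 ± 0.24), and Vangl1, a planar cell polarity gene, 5.68 to 9.97 against 14.3 to 22.4 CPM (1.32 ± 0.20). Mctp2 and Pla2g3, the latter a secreted phospholipase gene, had log2 fold changes of 1.33 ± 0.21 and 1.16 ± 0.18. Apod, the apolipoprotein D gene of oligodendrocytes and other glia, had 171, 102, 173 and 119 CPM in wild types and 259, 244, 303 and 228 CPM in mutants (0.90 ± 0.13).

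**Figure D1:**
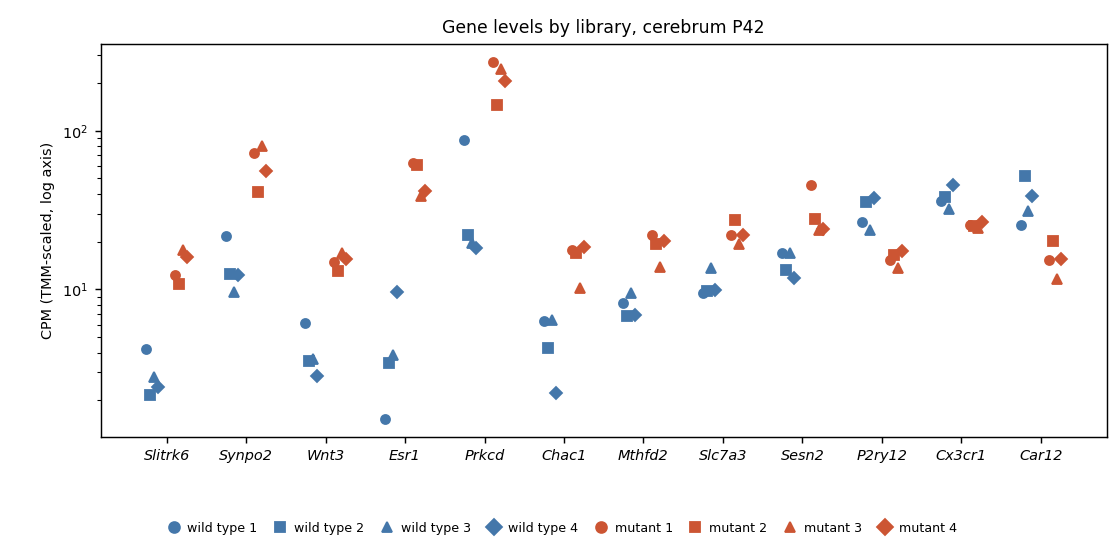
CPM of 12 named genes in each library (log axis), wild types in blue and mutants in red, with 1 marker shape per replicate number. All 4 mutants lie above all 4 wild types for the first 9 genes and below them for P2ry12, Cx3cr1 and Car12.

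Thalamus markers were higher in every mutant library. Of 15 markers, 15 had a log2 fold change above 0, with a median of 1.54, 15 had an unadjusted p under 0.05, and for 10 the groups did not overlap. DESeq2 called 12 of them. The list was drawn up with earlier results of these data known, so these counts are a description and not an independent test. The list's level, the mean over its measured members of log2 CPM relative to the wild type mean, was 0.62, -0.65, -0.06 and 0.08 in wild types 1 to 4 and 1.64, 1.18, 2.07 and 2.07 in mutants 1 to 4. All 4 mutants were above all 4 wild types, mutant 1 included. Ntng1, a netrin-related axon guidance gene, had 34.1, 31.1, 52.8 and 59.5 CPM in wild types and 87.2, 84.4, 124 and 111 CPM in mutants (1.20 ± 0.23), and Tnnt1, a troponin gene used as a thalamus marker, 3.51, 1.02, 1.38 and 2.65 and 6.77, 7.23, 10.7 and 15.4 CPM (2.23 ± 0.44). The members ran from 0.68 for Rora to 3.07 for Gbx2 on the log2 scale. Without mutants 3 and 4 the median was 1.29. It was -0.07 in cerebellum at P42 and 0.00 in cerebrum at P75.

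Hypothalamus and midbrain markers followed another pattern over the libraries. Of 21 hypothalamus genes kept, 20 were above 0, with a median log2 fold change of 1.23, but the groups did not overlap for only 2 of them (Gal and Oxt) and 8 had an unadjusted p under 0.05. The list's level was -1.22, -0.59, 0.38 and 1.43 in wild types and -0.08, 1.72, 2.73 and 2.40 in mutants, so mutant 1 lay within the wild types while mutants 2, 3 and 4 were above them. Avp, the vasopressin gene, had 0.793, 0.843, 1.53 and 3.85 CPM in wild types and 2.49, 21.0, 28.7 and 34.5 CPM in mutants. Oxt, the oxytocin gene, was listed at 0 in wild types 1 and 2, had 0.423 and 5.41 CPM in wild types 3 and 4, and 8.85, 13, 41.3 and 29.5 CPM in mutants. Gal, the galanin gene, had 0.340, 0.133, 1.27 and 0.728 CPM in wild types and 1.39, 2.95, 7.08 and 4.63 CPM in mutants. Each of the 3 was highest in mutants 3 and 4. Their log2 fold changes were 3.65 ± 0.72, 4.33 ± 1.17 and 2.74 ± 0.67 (edgeR adjusted p = 0.23, 0.34 and 0.314).

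Of 16 midbrain and monoamine neuron markers, 16 were above 0 with a median of 1.20, yet the groups overlapped for all 16 and 1 had an unadjusted p under 0.05. The level was -1.61, -1.70, 1.91 and 1.40 in wild types and -1.30, 1.78, 2.79 and 2.66 in mutants. The wild types themselves thus fell into a low pair (1 and 2) and a high pair (3 and 4), and mutant 1 sat with the low pair. Ddc, the enzyme that completes dopamine and serotonin synthesis, was lowest in wild types 1 and 2, with mutant 1 between the low and the high pair. It had 4.36, 6.56, 25.0 and 21.2 CPM in wild types and 16.2, 29.6, 56.9 and 39.6 CPM in mutants. The 5 habenula markers, 4 of them above 0, had a median of 1.28 and levels of 1.03, -0.92, 0.27 and -0.39 in wild types and 1.14, 0.19, 1.88 and 1.32 in mutants. Nwd2, the habenula marker below 0, was the only one without overlap, with every mutant below every wild type (-0.75 ± 0.24). Leaving out mutants 3 and 4 brought the hypothalamus, midbrain and habenula medians to 0.28, 0.07 and 0.41.

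Markers of cortical excitatory neurons were below the wild type range in mutants 3 and 4 alone. The list's level was 0.53, -0.05, -0.12 and -0.35 in wild types and 0.10, -0.35, -2.44 and -1.87 in mutants, with mutants 1 and 2 inside the wild type range. Of 16 members, 15 were below 0, with a median log2 fold change of -0.77, and the groups overlapped for all 16. edgeR and DESeq2 called 0 of the 16, and 0 had an unadjusted p under 0.05. Neurod6, a transcription factor of cortical projection neurons, had 71.8, 39.7, 62.8 and 38.6 CPM in wild types and 27.0, 39.8, 2.89 and 9.93 CPM in mutants, and Fezf2, which specifies deep-layer cortical neurons, 36.9, 20.2, 33.1 and 13.9 and 19.1, 17.2, 1.83 and 4.08 CPM. Without mutants 3 and 4 the list's median was -0.14. Of 18 synapse genes, 15 were below 0 (median -0.40), and the level was 0.00 and -0.16 in mutants 1 and 2 and -0.87 and -0.76 in mutants 3 and 4, against -0.11 to 0.15 in wild types. Homer1, a postsynaptic scaffold gene, had 325, 358, 199 and 274 CPM in wild types and 195, 190.1, 64.2 and 87.2 CPM in mutants (-1.10 ± 0.36). Without mutants 3 and 4 the synapse median was -0.12 and the log2 fold change of Homer1 -0.58.

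Striatum markers varied within both genotypes. Of 21 members 18 were below 0 (median -0.42), with none at an unadjusted p under 0.05. Their level was 0.07, 1.03, -1.36 and 0.26 in wild types and 0.35, -1.02, -0.07 and -0.23 in mutants, and the lowest library was wild type 3. Adora2a, the adenosine receptor gene of indirect-pathway striatal neurons, had 40.1, 83.9, 3.07 and 45.4 CPM in wild types and 23.6, 7.92, 19.3 and 20.2 CPM in mutants. Of 23 genes of mature oligodendrocytes and myelin, 21 were above 0 with a median of 0.57, 17 had an unadjusted p under 0.05 and 5 did not overlap. The level of these genes was 0.26, -0.24, 0.15 and -0.16 in wild types, 0.25 and 0.25 in mutants 1 and 2, and 0.79 and 0.89 in mutants 3 and 4. Myrf, a transcription factor of myelin genes, had 90.1, 58.3, 90.2 and 62.1 CPM in wild types and 113, 106, 149 and 149.6 CPM in mutants (0.81 ± 0.17), and Hapln2, a protein of the nodes of Ranvier, 30.9, 24.4, 51.7 and 13.1 and 56.1, 63.3, 99.9 and 82.8 CPM (1.43 ± 0.32). Hippocampus markers had a median of -0.29 over 10 genes and general inhibitory neuron markers -0.29 over 16. The inhibitory neuron level was 0.14 and -0.04 in mutants 1 and 2 and -0.39 and -0.38 in mutants 3 and 4, against -0.08 to 0.16 in wild types. Of the inhibitory neuron markers 10 were below 0 and 6 above it. Slc32a1 (0.52 ± 0.15) and Adarb2 (0.37 ± 0.13) had every mutant above every wild type (12.5% of the list, 3.53% over all genes). An unadjusted p under 0.05 was reached by 3 members above 0 and by 1 below it, Reln (-0.60 ± 0.19), whose groups overlapped. The members ran from -0.80 for Vip to 0.83 for Pvalb. Without mutants 3 and 4 the myelin median was 0.28, the inhibitory neuron median -0.02, the hippocampus median -0.18 and the striatum median -0.28.

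**Figure D2:**
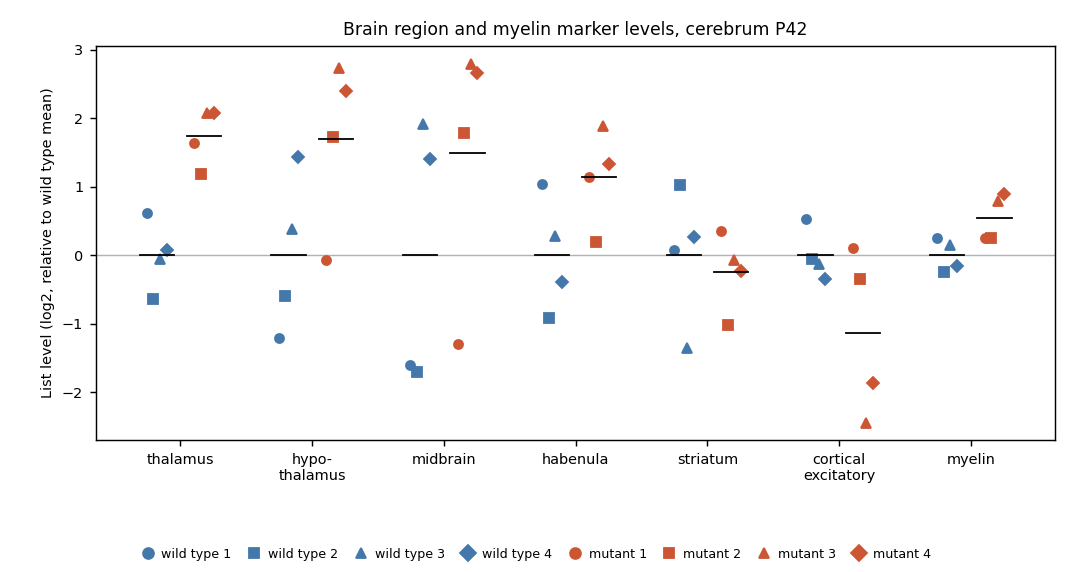
Level of 7 brain region and myelin marker lists in each library (log2, relative to the wild type mean), wild types in blue and mutants in red, with 1 marker shape per replicate number and the group mean as a bar. Thalamus levels are above all wild types in 4 of 4 mutants, while cortical excitatory levels are below them in mutants 3 and 4 only.

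Genes of the integrated stress response were higher in mutants as a group of small differences. Over 4 lists (transcription factors, ATF4 stress effectors, amino acid synthesis and amino acid transport), 34 of 36 genes kept had a log2 fold change above 0, with a median of 0.47. For 20 of them the unadjusted p was under 0.05, for 8 the groups did not overlap, and DESeq2 called 4 (Chac1, Sesn2, Mthfd2 and Slc7a3). Their joint level was 0.25, -0.07, 0.19 and -0.36 in wild types and 0.77, 0.63, 0.36 and 0.66 in mutants. All 4 mutants were above all wild types, with mutant 1 the highest, mutant 3 the lowest, and wild type 4 well below the other wild types. Without mutants 3 and 4 the median was 0.55.

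Among the transcription factors, 8 of 8 were above 0 (median 0.78) and 5 had an unadjusted p under 0.05. Ddit3, which encodes CHOP, had 15.0, 16.4, 16.8 and 8.95 CPM in wild types and 35.2, 22.2, 18.9 and 24.0 CPM in mutants (0.81 ± 0.24, edgeR adjusted p = 0.35). Mutant 1 was the highest library and mutant 3 lay just above wild type 3. Atf4 itself had 125, 77.6, 95.2 and 42.4 CPM in wild types and 139, 154, 114 and 141 CPM in mutants (0.75 ± 0.26), and Atf5 18.7, 8.29, 13.4 and 3.28 and 23.4, 17.7, 16.9 and 17.1 CPM (0.94 ± 0.34). Both overlapped between the groups, and wild type 4 had the lowest value of each. Trib3, a pseudokinase that feeds back on ATF4, was scarce in wild types (0.170, 0.399, 1.32 and 0.104 CPM) and had 1.97, 2.03, 1.25 and 2.99 CPM in mutants (2.09 ± 0.70). Wild type 3 was above mutant 3 there. The kinases and regulators of eIF2 that lie upstream, 12 genes, had a median of 0.10.

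Of 8 ATF4 stress effectors measured, 7 were above 0 (median 0.60) and for 2 the groups did not overlap. Chac1, an enzyme that breaks down glutathione, had 6.34, 4.26, 6.46 and 2.24 CPM in wild types and 17.8, 17.0, 10.2 and 18.5 CPM in mutants, a log2 fold change of 1.77 ± 0.33 (edgeR adjusted p = 0.23, DESeq2 7.34e-05). Sesn2, a leucine sensor that restrains mTORC1, had 16.9, 13.3, 17.0 and 11.8 CPM in wild types and 45.7, 27.9, 23.5 and 24.2 CPM in mutants (1.04 ± 0.20, edgeR adjusted p = 0.23). In both genes every mutant exceeded every wild type, and mutant 3 was the lowest mutant. Ddit4, another mTORC1 inhibitor, overlapped (72.3, 28, 29.3 and 8.74 CPM in wild types and 54.2, 69.2, 51.3 and 65.8 CPM in mutants). Of the 10 effectors 2 were too scarce to keep: Gdf15, a stress hormone, had at most 3 counts in a wild type and 12 in mutant 1, and Fgf21 at most 3 counts in any library.

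The enzymes that make serine, glycine, proline and one-carbon units were above 0 for 11 of 11, with a median of 0.46 and no overlap for 4. Mthfd2, the mitochondrial folate enzyme, had 8.21, 6.78, 9.47 and 6.92 CPM in wild types and 21.9, 19.5, 13.8 and 20.3 CPM in mutants (1.27 ± 0.19, edgeR adjusted p = 0.133, DESeq2 4.8e-06). Phgdh and Psat1, which catalyse early steps of serine synthesis, had 32.5 to 60.2 and 99.8 to 115 CPM in wild types and 66.3 to 72.7 and 119 to 142 CPM in mutants, so neither overlapped. Shmt2, which makes glycine from serine in mitochondria, had 24.8, 19.3, 21.0 and 17.0 CPM in wild types and 43.4, 34.2, 22.0 and 27.0 CPM in mutants (0.63 ± 0.21). Mutants 1 and 2 were clear of the wild types there, and mutant 3 fell inside their range.

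Among 9 amino acid transporters 8 were above 0 (median 0.31). Slc7a3, a carrier of arginine and lysine, had 9.46, 9.84, 13.6 and 9.94 CPM in wild types and 21.9, 27.5, 19.3 and 21.9 CPM in mutants (1.08 ± 0.18, edgeR adjusted p = 0.165, DESeq2 5.46e-05). The leucine carrier gene Slc7a5 (0.41 ± 0.15), the glycine carrier gene Slc6a9 (0.71 ± 0.27) and the neutral amino acid carrier gene Slc38a2 (0.29 ± 0.12) overlapped between the groups. Slc6a9 was highest in the libraries with the most deep region signal, with 49.1 and 53.3 CPM in mutants 1 and 2 and 83.1 and 91.7 CPM in mutants 3 and 4 against 28.7 to 57.6 CPM in wild types. The cytosolic tRNA synthetases, which load amino acids on tRNA, were above 0 for 17 of 20, with a median of 0.15 and no overlap for 5. Sars, Nars, Yars and Aars had log2 fold changes of 0.42 ± 0.11, 0.41 ± 0.12, 0.42 ± 0.13 and 0.41 ± 0.13, with 143 to 179.7 against 201 to 246 CPM for Sars and 154 to 192 against 203 to 285 CPM for Aars. The mitochondrial synthetases had a median of 0.05 over 17 genes.

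To show sequence shared by some of these genes, the 250 bases before each RefSeq start site (build GRCm38.p6) were searched on both strands for TGATGNAA, the letters of the composite element that ATF4 and its C/EBP partners are known to bind. It stood in 9 of 32 stress response genes with an entry (28.1%), in 3 of 13 cytosolic synthetase genes (23.1%), in 3 of 14 thalamus marker genes (21.4%), in 0 of 10 homeostatic microglia genes, and in 1056 of all 27025 genes in the table (3.91%). In the list of the endoplasmic reticulum unfolded protein response, which holds Herpud1, it stood in 1 of 17 genes (5.88%). A match in this window is a description of the letters and not a measured site. Several of these lists hold genes known to respond to ATF4, so a share above that of all genes was built in. It is no result of these libraries. The 32 stress response genes come from all 38 on the 4 lists, whether or not they had enough reads to be kept. The stretches that follow run 5′ to 3′ along the strand of the gene, with each match in capitals, read as TTNCATCA where it lies on the other strand. The stretch of Slc7a11 holds 2 matches and the others 1 each. They are shown because the first 3 genes had every mutant above every wild type, while Atf3 and Slc7a11, a cystine carrier gene, hold the match and overlapped between the groups. Pycr1, Atf3 and Slc7a11 were picked after their values were seen, so the genes shown do not give the balance. Of the other measured genes with a match, Aars and Tars had every mutant above every wild type. Asns, Gars, Nupr1, Pck2 and Vldlr overlapped, with a log2 fold change of -0.09 for Vldlr and 0.14 for Nupr1.
Chac1 (chr2:119351009-119351096, plus strand, first match starting 193 bases before the start site): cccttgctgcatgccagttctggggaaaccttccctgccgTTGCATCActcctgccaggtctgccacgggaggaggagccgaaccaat
Pycr1 (chr11:120643804-120643891, minus strand, first match starting 103 bases before the start site): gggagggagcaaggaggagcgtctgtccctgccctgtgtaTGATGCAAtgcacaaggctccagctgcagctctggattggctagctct
Herpud1 (chr8:94386277-94386364, plus strand, first match starting 112 bases before the start site): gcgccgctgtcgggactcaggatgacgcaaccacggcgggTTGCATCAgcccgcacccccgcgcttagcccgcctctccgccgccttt
Atf3 (chr1:191183396-191183483, minus strand, first match starting 110 bases before the start site): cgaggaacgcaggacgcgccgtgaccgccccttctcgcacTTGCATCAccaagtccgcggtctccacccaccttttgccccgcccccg
Slc7a11 (chr3:50443632-50443719, minus strand, first match starting 66 bases before the start site): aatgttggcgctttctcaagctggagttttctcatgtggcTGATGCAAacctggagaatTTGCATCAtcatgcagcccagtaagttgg

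**Figure D3:**
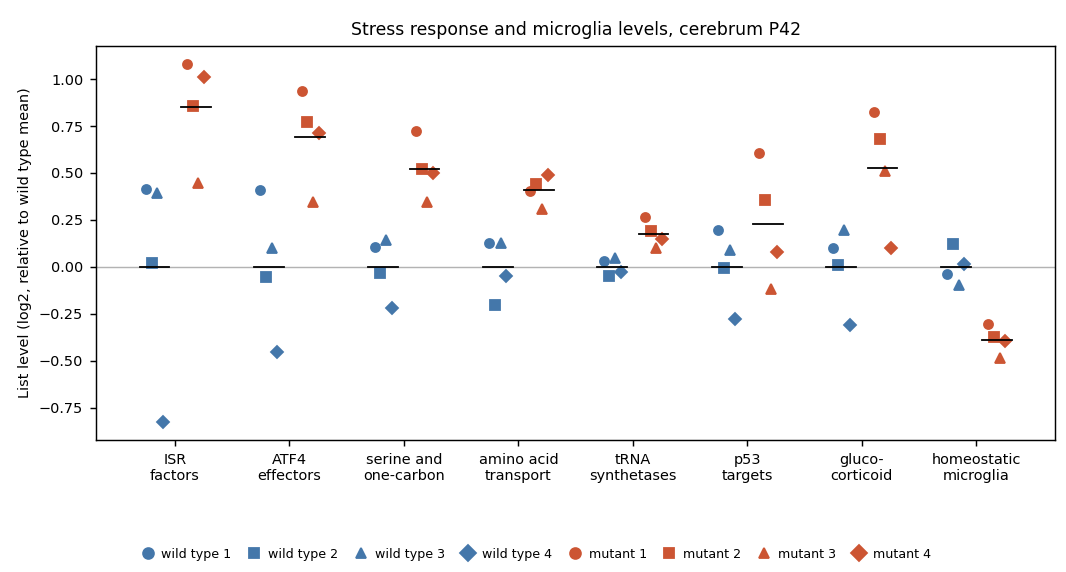
Level of 8 stress response and microglia lists in each library (log2, relative to the wild type mean), wild types in blue and mutants in red, with 1 marker shape per replicate number and the group mean as a bar. Mutants lie above all wild types in the first 5 lists for all 4 libraries, except mutant 3 for ATF4 effectors, and below them for homeostatic microglia.

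Other stress programmes were mixed. Of 20 genes of the endoplasmic reticulum unfolded protein response 14 were below 0 (median -0.12). Calr, the chaperone calreticulin, was lower in every mutant (301, 288, 307 and 342 CPM in wild types and 232, 241, 257 and 271 CPM in mutants, -0.31 ± 0.11). Herpud1, which also responds to ATF4, was higher in every mutant (61.1, 55.0, 58.5 and 53.3 and 97.7, 78.8, 78.1 and 74.0 CPM, 0.53 ± 0.11). Heat shock genes had a median of 0.10 over 13 genes. NRF2 targets, the antioxidant programme, had a median of 0.28 with 11 of 13 above 0 and 4 without overlap. Fth1, the ferritin heavy chain, and Srxn1, which repairs peroxiredoxins, had log2 fold changes of 0.36 ± 0.12 and 0.32 ± 0.11. The NRF2 list's level was -0.01, 0.12, 0.15 and -0.25 in wild types and 0.25, 0.36, 0.50 and 0.26 in mutants, all 4 above the wild types.

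Targets of p53 were above 0 for 17 of 27 (median 0.24), and 4 did not overlap. Cdkn1a, the cell cycle inhibitor p21, had 38.0, 23.9, 30.5 and 21.5 CPM in wild types and 105, 66.2, 42.7 and 33.5 CPM in mutants (1.12 ± 0.29). It was highest in mutant 1 and within the wild type range in mutant 4. Aen, a p53-induced nuclease, had 16.4, 15.7, 17.7 and 10.5 and 31.2, 23.8, 22.0 and 23.1 CPM (0.74 ± 0.17) and Dcxr 1.61 to 4.08 and 5.25 to 6.48 CPM (1.07 ± 0.27), both with every mutant above the wild types. Phlda3, a p53-induced inhibitor of Akt, had another order among the mutants, with 34.6, 35.7, 53.4 and 57.0 CPM against 23.7, 12.2, 31.9 and 11.9 CPM in wild types (1.29 ± 0.29). Mutants 3 and 4 were the highest there. The p53 list's level was 0.60, 0.35, -0.12 and 0.08 in mutants and 0.19, -0.01, 0.09 and -0.28 in wild types, above all wild types in mutants 1 and 2 and not in mutants 3 and 4.

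Genes induced by glucocorticoids were above 0 for 9 of 9 (median 0.48), with levels of 0.10, 0.01, 0.20 and -0.31 in wild types and 0.83, 0.68, 0.51 and 0.10 in mutants. Plin4, a lipid droplet gene, had 10.7, 19.4, 47.5 and 10.5 CPM in wild types and 96.5, 50.3, 69.8 and 27.5 CPM in mutants (1.45 ± 0.42), Sgk1, a stress-induced kinase, 209, 173, 94.5 and 152 and 267, 225, 256 and 261 CPM (0.68 ± 0.22), and Tsc22d3, which encodes GILZ, 104, 85.1, 97.0 and 76.2 and 109, 159, 146 and 136 CPM (0.61 ± 0.15). Fkbp5, a chaperone that tempers the glucocorticoid receptor, was above all wild types in mutants 1 and 2 only (120.1, 101, 73.2 and 46.9 CPM in mutants and 59.1, 48.7, 85.0 and 49.4 CPM in wild types). Immediate early genes of neuronal activity were below 0 for 12 of 13 (median -0.58). Nr4a3 had 51.2, 56.5, 52.9 and 54.4 CPM in wild types and 25.6, 49.5, 12.2 and 23.0 CPM in mutants (-1.03 ± 0.30), and Arc 235, 226, 64.3 and 141 and 69.4, 129, 33.9 and 56.0 CPM. The lowest values of both were in mutants 3 and 4, and the list's median without those libraries was -0.14. Interferon-stimulated genes had a median of 0.12 over 25 genes, and the groups overlapped for 23 of them.

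The stress genes and the deep region content were then set side by side in the same libraries. The joint level of the thalamus, hypothalamus, midbrain and habenula lists, the deep region level, was -0.64, -0.95, 0.68 and 0.91 in wild types and 0.14, 1.46, 2.50 and 2.29 in mutants. Mutant 1 lay between the wild types on this scale and had the highest stress response level of all 8 libraries (0.77), the highest Cdkn1a and Sesn2, and a thalamus level of 1.64, above every wild type. Mutant 3 had the highest deep region level (2.50) and the lowest stress response level among mutants (0.36). Wild types 3 and 4, with deep region levels of 0.68 and 0.91, had stress response levels of 0.19 and -0.36.

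**Figure D4:**
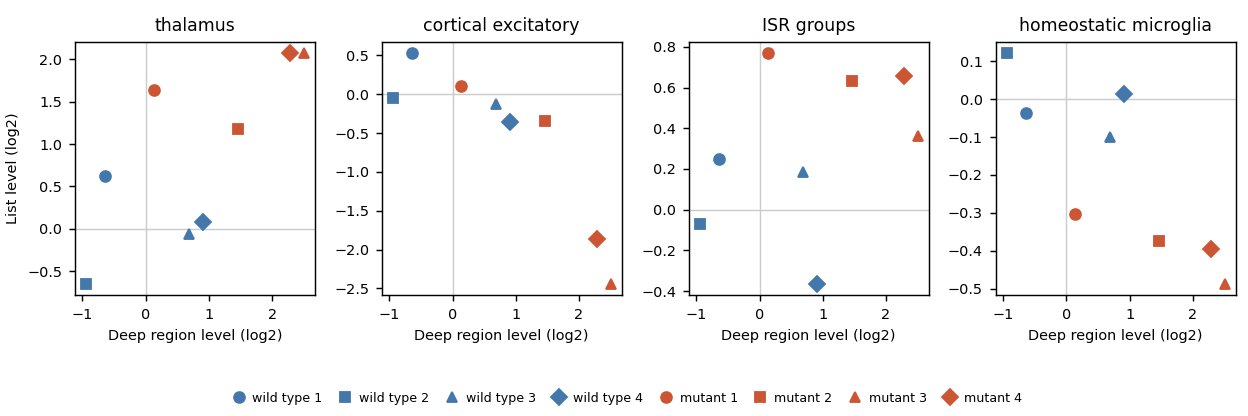
Deep region level of each library (horizontal axis, log2) against its level of thalamus markers, cortical excitatory markers, integrated stress response genes and homeostatic microglia genes (vertical axes, log2), wild types in blue and mutants in red. Mutants 3 and 4, with the highest deep region levels, have the lowest cortical levels. The stress response level is highest in mutant 1, whose deep region level of 0.14 is within the wild type range. The thalamus level of mutant 1 (1.64) is above every wild type.

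With the deep region level as a covariate the stress response list kept its direction while the region lists moved in different ways. The median of the 36 stress response genes was 0.64 in that fit, with 33 of 36 above 0 (52.1% over all genes) and 20 of 36 with an unadjusted p under 0.05 and higher (3.32% over all genes). The medians of p53 targets and glucocorticoid-responsive genes were 0.53 and 0.64, with 8 of 27 and 7 of 9 at that p. The cortical median went from -0.77 to 0.01, the synapse median from -0.40 to -0.01, the immediate early gene median from -0.58 to 0.02, the hypothalamus median from 1.23 to -0.12 and the midbrain median from 1.20 to -1.47. The striatum median went from -0.42 to 0.37, and the hippocampus median moved away from 0, from -0.29 to -1.01. Thalamus, hypothalamus, midbrain and habenula genes all help to build the covariate, so their own values in this fit are no test of it. The thalamus median in it was 1.27, so the fit did not remove the thalamus difference. Of the 57 genes in the covariate 15 are thalamus markers. A list that kept its direction here is therefore not set apart from thalamus content. Myelin genes had a median of 0.36 and homeostatic microglia genes -0.24. Of the 15 homeostatic microglia genes 3 were above 0 in this fit. An unadjusted p under 0.05 on the lower side was left for 4 of them (3.02% over all genes).

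In that fit 1 gene of 18205 passed the adjusted threshold (0.00549%), Tph2, which is a member of the covariate's own lists and was lower. By the naming rule, which asks that the groups do not overlap, the genes with the smallest p there were Sesn2 (1.37 ± 0.20), Esr1 (3.50 ± 0.51), Synpo2 (2.24 ± 0.33), Slitrk6 (2.06 ± 0.31), Wnt3 (2.0 ± 0.31) and Prkcd (3.16 ± 0.57) on the higher side. On the lower side, where 3.02% of all genes had an unadjusted p under 0.05, they were P2ry12 (-0.88 ± 0.17), Car12 (-0.98 ± 0.20), Tgfb2, a growth factor gene (-0.86 ± 0.19), Fam111a (-2.39 ± 0.57), Hapln1 (-0.66 ± 0.16) and Ak4, a mitochondrial adenylate kinase gene (-0.91 ± 0.24). None of these 12 passed after adjustment. Cdkn1a, whose groups overlapped, had 1.65 ± 0.25 in that fit with an unadjusted p between those of Slitrk6 and Wnt3, and did not pass either. A covariate of thalamus markers alone, which separates the genotypes by itself, gave a stress response median of 0.55 and log2 fold changes for Slitrk6, Synpo2 and Wnt3 of 1.13, 1.27 and 1.26. Because every mutant had a higher thalamus level than every wild type, genotype and thalamus content cannot be told apart for genes that thalamus cells express.

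**Figure D5:**
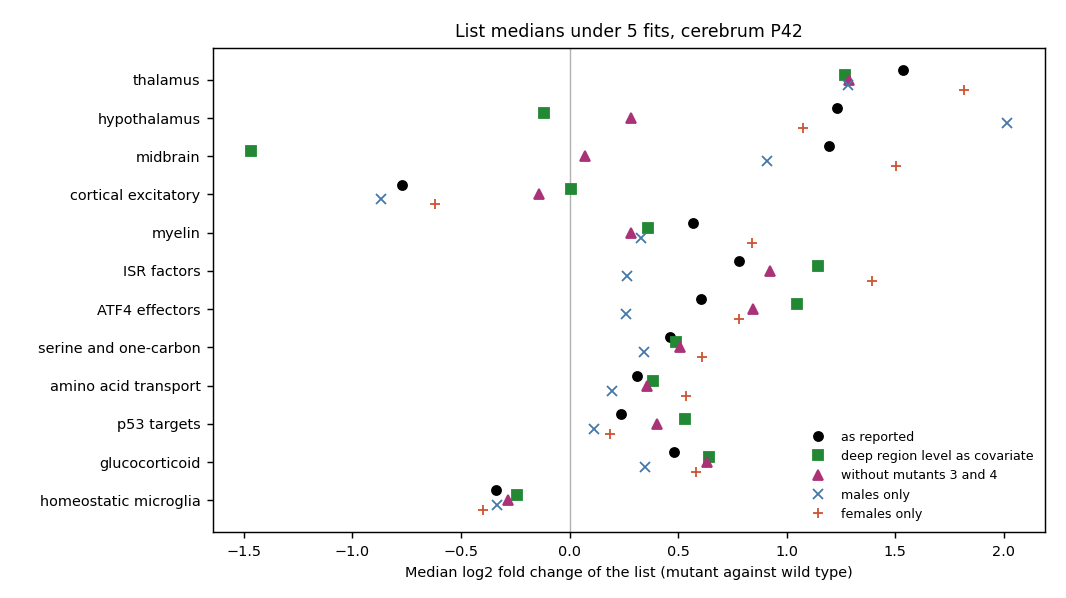
Median log2 fold change of 12 gene lists under 5 fits: as reported, with the deep region level as a covariate, without mutants 3 and 4, males only and females only. Hypothalamus, midbrain and cortical medians move toward or past 0 with the covariate and without mutants 3 and 4, and the 4 integrated stress response lists stay above 0 in all 5.

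Genes of homeostatic microglia, the resting state of the brain's resident immune cells, were lower in every mutant. All 15 were below 0, with a median of -0.34. For 7 the groups did not overlap and 7 had an unadjusted p under 0.05. The level was -0.04, 0.12, -0.10 and 0.01 in wild types and -0.30, -0.37, -0.49 and -0.40 in mutants, a narrow spread in which all 4 mutants lay below all wild types and mutant 1 differed little from mutants 2 to 4. P2ry12, the ADP receptor by which microglia sense injury, had 26.6, 35.5, 23.6 and 37.9 CPM in wild types and 15.3, 16.6, 13.6 and 17.4 CPM in mutants (-0.95 ± 0.13, edgeR adjusted p = 0.112, DESeq2 2.57e-07). Cx3cr1, the fractalkine receptor, had 36.2, 38.4, 32.0 and 45.5 and 25.3, 25.0, 24.4 and 26.7 CPM (-0.58 ± 0.12), Fcrls 20.8, 19.7, 17.0 and 15.0 and 10.3, 12.5, 9.39 and 11.9 CPM (-0.73 ± 0.16), and Csf1r, on which microglia depend for survival, 102, 102, 90.0 and 88.2 and 83.1, 74.8, 69.1 and 74.9 CPM (-0.34 ± 0.11). DESeq2 called 3 of the 15, all lower.

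Genes shared by all myeloid cells were below 0 for 11 of 15 (median -0.25), with levels of 0.10, 0.18, -0.04 and -0.23 in wild types and -0.21, -0.22, -0.19 and -0.14 in mutants, which overlapped. Laptm5, a lysosomal protein gene, had 32.3, 31.6, 29.6 and 37.8 CPM in wild types and 26.3, 20.8, 19.9 and 20.4 CPM in mutants (-0.59 ± 0.14), and Itgam, which encodes CD11b, 5.44, 5.81, 4.18 and 3.90 and 2.84, 3.31, 2.31 and 2.56 CPM (-0.81 ± 0.24). Of 15 genes of activated microglia 7 were too scarce to keep, Itgax, Cst7 and Clec7a among them with at most 11 counts in a library, and the other 8 had a median of 0.14. Of those 8, 5 were above 0 and 3 below it. Csf1, a growth factor for microglia, was higher in every mutant (16.9 to 23.7 CPM in wild types and 25.2 to 31.3 CPM in mutants, 0.47 ± 0.14). Lpl, on the same list, went the other way (-0.94 ± 0.29), with groups that overlapped. Among markers of reactive astrocytes, C4b, a complement gene, had 22.8, 19.8, 28.8 and 15.2 CPM in wild types and 37.7, 42, 49.7 and 42.6 CPM in mutants (1.01 ± 0.17, DESeq2 adjusted p = 9.26e-05), and the list had 13 of 18 above 0, a median of 0.16 and 6 with an unadjusted p under 0.05. The reactive astrocyte level was 0.26, -0.28, 0.26 and -0.24 in wild types and 0.40, 0.38, 0.31 and 0.34 in mutants, all 4 above the wild types. Astrocyte markers had a median of 0.19 over 16 genes, and endothelial markers -0.02 over 15.

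Genes outside the lists with the smallest p on the lower side covered several functions. Car12, a membrane carbonic anhydrase, had 25.6, 52.0, 31.3 and 38.7 CPM in wild types and 15.4, 20.1, 11.6 and 15.5 CPM in mutants (-1.21 ± 0.17). Dio2, the enzyme that activates thyroid hormone, had 112, 129, 99.8 and 140.5 and 77.9, 64.6, 36.8 and 44.8 CPM (-1.09 ± 0.23), and Inhba, an activin subunit gene, 14.0, 22.7, 13 and 25.3 and 9.84, 11.3, 5.73 and 7.80 CPM (-1.07 ± 0.22). In the last 2, mutants 3 and 4 were the lowest libraries, and without them the log2 fold changes were -0.75 for Dio2 and -0.78 for Inhba. Hapln1, which links hyaluronan to proteoglycans, had 23.6 to 37.6 against 16.6 to 21.6 CPM (-0.62 ± 0.12). Lix1, the cadherin gene Cdh9, the corepressor gene Cbfa2t3, the adhesion gene Nectin3, Plppr5 and the Golgi mannosidase gene Man1a had log2 fold changes of -0.84, -1.03, -0.87, -0.58, -0.68 and -0.58. Their edgeR adjusted p ran from 0.23 to 0.264. Without mutants 3 and 4 their log2 fold changes were -0.62, -0.75, -0.66, -0.53, -0.47 and -0.50 in the same order.

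Genes of the RNA polymerase III system itself had small differences. Its 18 subunit genes had a median of 0.15 with the groups overlapping for all 18, and its 18 transcription factor genes a median of -0.05, also all overlapping. Polr1c, a subunit shared with RNA polymerase I, had 9.47 to 14.2 CPM in wild types and 13.3 to 18 CPM in mutants (0.40 ± 0.15). Genes of tRNA processing and modification had a median of 0.08 over 18. Of 9 polymerase III transcripts on the list only Rn7sk had enough reads in these polyA libraries to be kept.

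The difference between genotypes was tested for dependence on sex, tissue and age. For sex, 0 of 18205 genes passed in edgeR (0%), where 1446 had an unadjusted p under 0.05 and DESeq2 called 33. In males the median of the stress response genes was 0.24 and in females 0.63. For tissue at P42, 0 of 19614 genes passed (0%), where 1213 had an unadjusted p under 0.05 and DESeq2 called 8. In cerebellum the stress response genes had a median of 0.47, the thalamus markers -0.07 and the homeostatic microglia genes -0.14. Esr1 had a log2 fold change of 5.16 ± 0.23 there (edgeR adjusted p = 6e-05).

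Age gave a clearer contrast, although age, time since tamoxifen and count table cannot be told apart, and the 4 mutants and 4 wild types at P75 were all male. Of 19273 genes, 62 had a difference at P42 above that at P75 (0.322%) and 201 below it (1.04%). The genes that rose at P42 had a smaller difference at P75 that edgeR did not call: the age difference was 2.45 ± 0.28 for Slitrk6 (adjusted p = 0.000298), 2.14 ± 0.25 for Synpo2 (0.000332) and 1.39 ± 0.30 for Wnt3 (0.0272), with P75 log2 fold changes of -0.13 ± 0.16, -0.02 ± 0.09 and 0.52 ± 0.20. Among thalamus markers 7 of 15 had an age difference above 0 that passed, Prkcd (2.38 ± 0.41), Plekhg1 (1.31 ± 0.27), Ntng1 (1.31 ± 0.26) and Tnnt1 (2.05 ± 0.47) among them. Adarb1, an RNA editing enzyme gene with 258 to 295 CPM in wild types and 344 to 482 CPM in mutants at P42, also had an age difference above 0 (0.96 ± 0.15). It was not on the thalamus list, and whether thalamus cells express it was not tested.

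The stress response genes were higher in mutants at P75 as well. At that age 36 of 36 were above 0 (50.5% over all genes), with a median of 0.75, and 33 passed edgeR's test as higher (7.66% over all genes). Mthfd2 had 1.37 ± 0.13, Chac1 1.99 ± 0.15 and Slc7a3 1.38 ± 0.09 at P75. None of these 3 had an age difference that passed (adjusted p = 0.871, 0.816 and 0.486), and 2 of 36 members did, both below 0, Sesn2 with -1.13 ± 0.26 among them. Homeostatic microglia genes lay on the other side of 0 at P75, where 15 of 15 were above it (median 0.57) and 6 were called higher. For 7 of them the age difference passed below 0, P2ry12 (-0.98 ± 0.19), Cx3cr1 (-1.15 ± 0.26), Csf1r (-1.06 ± 0.23) and Fcrls (-1.51 ± 0.36) included. All 15 pan-myeloid genes were called higher at P75. Cortical excitatory markers were called lower for 11 of 16 at P75 (6.62% over all genes). Interferon-stimulated genes were called higher for 25 of 25 at P75 (median 3.83), and for 25 of 25 the age difference passed below 0. Oasl2, an antiviral gene, had 4.42, 5.68, 3.18 and 5.62 CPM in wild types and 6.60, 5.80, 6.60 and 6.40 CPM in mutants at P42, and its log2 fold change was 0.45 ± 0.22 at P42 and 4.93 ± 0.33 at P75. Ifit3, another, had 0.39 ± 0.20 and 4.2 ± 0.29.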

How the data were processed

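The deposited values were raw read counts per gene in 1 table for both tissues at P42 and 1 for cerebrum at P75. HISAT2, DESeq2 and build mm10 stand in the submitters' processing notes without versions. Not given in the sources used here: the read counter and the annotation. Columns were matched to samples by title. Counts were tested with edgeR 4.0.16 (R 4.3.3): filterByExpr by genotype (18205 of 54532 genes kept), TMM scaling, and the quasi-likelihood F test of genotype with sex as covariate, two-sided, with Benjamini-Hochberg adjusted p under 0.05 over all genes kept. CPM are TMM-scaled. List levels are means of log2 CPM with a prior count of 2. The genotype difference was tested against sex, tissue and age by interaction terms. The fits were tested on simulated counts. Alternatives were DESeq2 1.42.0, other scalings and filters, no sex term, the replicate number as a block, region levels as covariates, each sex alone and libraries left out.

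Genes are named by a rule: the mutated gene and Esr1, all genes called, the 12 higher and 12 lower genes with the smallest p, at least 1 CPM and no overlap, the 6 each way in the fit with the deep region covariate, up to 4 members of each list, and the 3 each way of each interaction. The members and lists were chosen with earlier results of these data known.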

Additional observations from a re-analysis of the deposited data

Results flagged for a closer look

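Of 214 groups of 4 libraries tested for a library far from the other three, 10 were picked out, and chance picks about 1 in 20 groups. The value given is the gap to the nearest library divided by the group's range. In wild types, wild type 1 was far above the others for Abhd12b (0.872), Prkcd (0.944) and Kl (0.834), wild type 4 for Oxt (0.922), and wild type 3 for Slc7a3 (0.885) and Srxn1 (0.958). In mutants, mutant 3 was far above the others for Mctp2 (0.894), mutant 1 far above them for Laptm5 (0.865) and Atf5 (0.881), and mutant 1 far below them for Ifit3 (0.895). Wild type 1 was also the wild type with the most thalamus signal (0.62) and choroid plexus and ependyma signal (0.87) on the log2 level scale. Whether that had a part in the values of Prkcd and Kl was not tested.

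For 25 of 87 named genes checked, the genotype difference at P42 departed from that at P75 by edgeR's test of the difference. Over all 19273 genes, 0.322% passed above 0 and 1.04% below it. The naming rule draws on this same test and on the smallest p at P42, so the count is no independent result. The differences above 0 on the log2 scale, with P42 the larger, were 2.45 for Slitrk6, 2.14 for Synpo2, 1.39 for Wnt3, 3.55 for Abhd12b, 2.38 for Prkcd, 1.25 for Vangl1, 1.01 for Pla2g3, 1.31 for Plekhg1, 2.05 for Tnnt1, 1.31 for Ntng1 and 0.96 for Adarb1. Among these, Prkcd, Plekhg1, Tnnt1 and Ntng1 are on the thalamus marker list. Whether thalamus cells express the others was not tested.

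The differences below 0 included myeloid genes, with -0.98 for P2ry12, -1.15 for Cx3cr1, -1.51 for Fcrls, -1.06 for Csf1r, -2.11 for Itgam and -1.73 for Laptm5. They also included the interferon-stimulated genes Oasl2 (-4.49) and Ifit3 (-3.81) and the complement gene C4b (-2.0). The others were Car12 (-1.13), Inhba (-1.65), Man1a (-0.60), Sesn2 (-1.13) and Fam111a (-2.42). At P42 alone, Sesn2 and C4b were higher in every mutant, and Fam111a had 1.93, 1.42, 2.06 and 5.05 CPM in wild types and 0.695, 0.460, 0.722 and 1.16 CPM in mutants.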

How the results depend on the processing

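The count of 3 called genes depended on the processing. It was 233 with DESeq2, 1312 with no filter (1285 of them among the 18205 genes kept otherwise), 8 with the replicate number as a block, 1 with the deep region or the cortical covariate, and 0 with library size scaling alone, with 1 CPM in 4 libraries as the filter, with no sex term, with the thalamus or the hypothalamus covariate, without mutants 3 and 4, or in males alone. Leaving out 1 library gave 0 to 11 calls. The count of sex differences was 33 with DESeq2 and 386 with no filter, against 0. The count of tissue differences was 8 and 279, against 0, and 0 to 2 with 1 library left out, with 2 without wild type 1. The count of age differences was 670 and 1176, against 263, and 168 with the deep region covariate. With 1 library left out it was 166 to 1169, the extremes being without mutant 4 and without mutant 1. The cause of these changes in counts was not tested.

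The thalamus median was 0.012 with the thalamus covariate. The hypothalamus median was -0.12, -0.61 and -0.11 with the deep region, thalamus and hypothalamus covariates, and the cortical median 0.68 with the thalamus covariate. The homeostatic microglia median was -0.24, -0.22, -0.24 and -0.24 with the deep region, thalamus, hypothalamus and cortical covariates, and -0.44 to -0.27 with 1 library left out. With the thalamus covariate 5 of its 15 genes were above 0. The stress response median kept its sign in all 22 alternatives and moved by less than the spread between libraries.

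Of 87 genes, 9 changed direction in 1 of 22 alternatives each. With the thalamus covariate the log2 fold change was -0.49 for Tnnt1, -0.61 for Oxt, 1.24 for Slc17a7, 0.19 for Neurod6, 0.79 for Fezf2, 0.043 for Homer1, -0.40 for Slc6a9 and -0.014 for Ifit3, and with the deep region covariate it was -0.012 for Ddc. Of 1914 values, 1732 kept their direction and side of the threshold, 125 passed it newly and 48 no longer passed.

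Samples of the same number did not deviate together: the correlations of their deviations from the group means were -0.08, -0.09, 0.16 and -0.29 for numbers 1 to 4, so the block pairs libraries by number only. It kept 2 of the 3 calls. Depth was 15500359 to 23175864 counts a library, and genes such as Gdf15, with at most 12 counts in a library, could not be tested.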

Other observations

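Several genes of the choroid plexus, the tissue that secretes cerebrospinal fluid, had lower counts in every mutant. Of 21 choroid plexus and ependyma genes, 14 were below 0 and 7 above it, with a median of -0.83, and for 4 the groups did not overlap. Kl, the klotho gene, had 74.6, 30.5, 33.2 and 37.8 CPM in wild types and 5.90, 14.1, 14.9 and 22.8 CPM in mutants (-1.62 ± 0.42, edgeR adjusted p = 0.334, DESeq2 0.00719). Kcnj13, a potassium channel gene, had 2.01 to 4.76 CPM in wild types and 0.463 to 1.49 CPM in mutants (-1.57 ± 0.43), and F5, which encodes coagulation factor V, 9.47 to 21.4 and 4.17 to 7.95 CPM (-1.05 ± 0.31). Mutant 1 was the lowest library for all 3. In cerebellum the list's median was -1.11 and in cerebrum at P75 0.28. Of the 7 genes above 0, several, Foxj1 among them, belong to ciliated ependyma. Of 6 blood genes 3 were kept, all below 0 (median -1.68). Hba-a1, an alpha globin gene, had 14.7, 14.9, 3.02 and 4.99 CPM in wild types and 3.18, 2.26, 0.819 and 3.23 CPM in mutants, so wild types 1 and 2 were high and the groups overlapped. How much choroid plexus or blood entered each dissection was not measured.

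Genes of protein synthesis and respiration varied between single libraries of both genotypes. Ribosomal protein genes were above 0 for 65 of 79 (median 0.21), with levels of 0.25, -0.03, 0.24 and -0.46 in wild types and -0.01, 0.23, 0.37 and 0.37 in mutants. Nuclear genes of oxidative phosphorylation were above 0 for 72 of 76 (median 0.26), with levels of 0.30, -0.04, 0.22 and -0.47 in wild types and -0.01, 0.30, 0.42 and 0.48 in mutants. Wild type 4 was the lowest library for both, as it was for the stress response genes, and without it the stress response median was 0.40. Mitochondrially encoded genes were below 0 for 11 of 12 (median -0.28). Cholesterol synthesis genes had a median of -0.21, with a level of -0.46 in mutant 1 and -0.04, -0.06 and -0.07 in the other mutants. At P75 16 of 20 were called lower by edgeR (6.62% over all genes).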
